A study of Mus musculus with 8 samples.

Results

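The genes of sterol and fatty acid synthesis were followed in sorted tuft cells, the chemosensory cells of the gut epithelium, from mouse small intestine, with and without signal from a Chat reporter. The set holds 28 genes, chosen by name as rows of the deposited count table: 16 enzymes of the sterol pathway, 3 regulators of the pathway (Srebf1, Srebf2 and Insig1), 3 further genes of sterol and acetyl-CoA handling (Stard4, Acat2 and Tmem97) and 6 genes of fatty acid synthesis. All 28 were found among the 53655 gene symbols of the table, and 27 of them were among the 8919 genes that passed the filter on low counts. Scd1 did not pass it, with 18 reads over all libraries.

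All animals were naïve and carried both reporters, with genotype Il25-RFP/+;Chat-GFP(Tg+), and the labels set the Chat-neg and Chat-pos groups apart by the sorting gate alone. Cells in both gates were CD45-negative, EPCAM-positive and Il25-RFP-positive, and were then divided by GFP into Chat-neg (4 libraries) and Chat-pos (4 libraries). Chat encodes choline acetyltransferase, which makes acetylcholine, and the labels mark its GFP reporter as a transgene, so GFP stands in for Chat only as far as the transgene follows the gene. The labels give neither age nor sex, and do not say whether a library comes from 1 animal or from a pool, so p-values measure the spread between libraries, which may in part be technical. The question put to the genes here is whether each step of the 2 branches differed between GFP-positive and GFP-negative sorts.

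Levels are in CPM, counts per 1000000 reads on named genes in a library after trimmed-mean (TMM) scaling. Reads on named genes ran from 87642 to 1176880 in the Chat-neg libraries and from 1757401 to 2541955 in the Chat-pos libraries, so depth moved with the gate and Chat-neg replicate 1 was by far the shallowest. There 3 reads correspond to 31.1 CPM, and 24 of the 28 members had fewer than 10 reads. Chat itself stood at 93.2, 110, 147 and 97.9 CPM in Chat-neg and at 309, 285, 350 and 355 CPM in Chat-pos, in the direction of the labels. The 8 tuft cell marker genes used here were detected in every library, with summed levels of 5894 to 11002 CPM in Chat-neg and 14251 to 14999 CPM in Chat-pos. Of the 8, 4 (Chat, Il25, Gfi1b and Sh2d6) were higher in Chat-pos by the test described below. Paneth cell markers (0 of 7 passed the test; Defa24 and Defa30 the most abundant) summed to 56070 and 30122 CPM in Chat-pos replicates 2 and 3, against 592 and 474 CPM in replicates 1 and 4 of that gate and 694 to 3385 CPM in Chat-neg. Goblet cell markers (1 of 6 passed, Clca1, lower) ranged from 425 to 5321 CPM in Chat-neg and from 285 to 1439 CPM in Chat-pos. Intraepithelial lymphocyte markers (0 of 4 tested) ranged from 159 to 331 CPM in Chat-neg and were at 2.44, 271, 9.29 and 6.21 CPM in Chat-pos. Cd8a, too low to be tested, had 0, 12, 17 and 1 reads in Chat-neg and 0, 20, 0 and 0 reads in Chat-pos. Enterocyte markers (0 of 8), mainly Fabp1, overlapped between the gates, summing to 19237 to 44421 CPM for Chat-neg and 32518 to 53598 CPM for Chat-pos. Their log2 differences ran from -0.57 to 0.66, with 5 of 8 above 0. The sum exceeded the tuft marker sum in every library through Fabp1, at 15114 to 41007 CPM in Chat-neg and 24083 to 47377 CPM in Chat-pos. The other enterocyte markers together lay below the tuft marker sum in every library. Enteroendocrine markers (0 of 6 tested for lack of reads) summed to 5.9 to 423 CPM and 4.97 to 28.7 CPM, and stem and cycling markers (0 of 6) to 95.3 to 951 CPM and 111 to 1042 CPM. What these other cells and the depth contribute to the results was not tested, other than by leaving out libraries.

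Animal cells make cholesterol from acetyl-CoA. The mevalonate steps build 5-carbon isoprenoid units and join them into farnesyl diphosphate, Fdft1 commits that intermediate to squalene, and the later enzymes close and trim the sterol rings. Fatty acid synthesis starts from the same acetyl-CoA through acetyl-CoA carboxylase. Both branches are controlled by SREBP transcription factors, membrane proteins that are cut and sent to the nucleus when sterols run low: SREBP2 (gene Srebf2) acts mainly on the sterol branch and SREBP1 (Srebf1) mainly on the fatty acid branch. The gut epithelium is a large site of sterol synthesis, and its absorptive cells also take up cholesterol from the diet.

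SREBPs bind short promoter elements together with the general factors NF-Y and SP1. Annotated promoter windows of 2 genes that were higher in Chat-pos, Hmgcs1 and Pmvk, are therefore shown with that of Fasn from the fatty acid branch. Each is a RefSeq window of 300 bases on GRCm38.p6, 250 before and 50 after the annotated start, written 5′ to 3′ on the gene's strand. Capitals mark TCACNCCAC, a form of the sterol regulatory element, and CCAAT, the NF-Y motif, each searched on both strands (on the reverse strand CCAAT reads ATTGG).
Hmgcs1, chr13:119690101-119690400, plus strand: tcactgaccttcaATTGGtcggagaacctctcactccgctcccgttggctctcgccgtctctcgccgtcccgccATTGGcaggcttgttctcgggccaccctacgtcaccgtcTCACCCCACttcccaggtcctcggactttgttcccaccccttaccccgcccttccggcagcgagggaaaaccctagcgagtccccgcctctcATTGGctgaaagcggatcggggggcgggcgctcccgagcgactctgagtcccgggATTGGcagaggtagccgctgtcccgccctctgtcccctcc
Pmvk, chr3:89454291-89454590, plus strand: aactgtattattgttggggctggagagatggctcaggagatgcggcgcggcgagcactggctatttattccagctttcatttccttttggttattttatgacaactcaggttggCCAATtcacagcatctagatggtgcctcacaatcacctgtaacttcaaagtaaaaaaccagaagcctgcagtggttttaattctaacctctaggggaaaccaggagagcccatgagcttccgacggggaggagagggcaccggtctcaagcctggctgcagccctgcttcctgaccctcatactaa
Fasn, chr11:120824498-120824797, minus strand: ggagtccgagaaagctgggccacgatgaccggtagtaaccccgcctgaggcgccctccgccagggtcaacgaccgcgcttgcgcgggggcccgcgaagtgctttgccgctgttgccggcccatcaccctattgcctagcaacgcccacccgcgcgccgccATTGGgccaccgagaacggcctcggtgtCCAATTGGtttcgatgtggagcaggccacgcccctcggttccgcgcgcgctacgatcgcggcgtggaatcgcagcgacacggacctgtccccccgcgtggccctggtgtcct
The Hmgcs1 window holds 1 TCACCCCAC, at 137 to 129 bases before the start, and 4 CCAAT letters on the reverse strand. The Pmvk window shown holds 1 CCAAT, and a further Pmvk window in the table, at chr3:89459321-89459620, holds none. The window shown lies at the outermost annotated start and the further one at a start inside the gene. Which start these cells use was not tested, so neither window is shown to be the promoter in use. The Fasn window holds 3 CCAAT matches, 2 of which overlap each other. RefSeq windows were matched by symbol for 22 of the 28 genes (all but Fdps, Fdft1, Sqle, Stard4, Scd1 and Scd2), 27 windows in all. TCACNCCAC was in 1 of the 27 (3.7%), against 1.24% of the 32851 windows of the whole table, and CCAAT in 20 of 27 (74.1%), against 37.4%. The GC box GGGCGG bound by SP1 was in 20 of 27 (74.1%), against 35.7%, and the E-box CACGTG in 4 (14.8%), against 7.15%. Counted by gene, CCAAT lay in a window of all 5 mevalonate and all 8 later sterol genes that have one, and in 2 of 4 fatty acid genes. Of the fatty acid genes without it, Acaca has its only window, chr11:84195188-84195487, inside the gene. The sequence before its outermost annotated start, at 84129672, was not searched. A match is a run of letters, not a binding site.

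The first steps of the sterol pathway divided into genes that were higher in Chat-pos and genes for which no difference was found. Of the 6 mevalonate genes, Hmgcs1 and Pmvk rose and none fell (edgeR's quasi-likelihood test, Benjamini-Hochberg adjusted p under 0.05 over the 8919 genes). Over all genes 3.62% were called higher and 2.87% lower. Hmgcs1 makes HMG-CoA, the entry to the pathway, and Pmvk adds the second phosphate to mevalonate. The median log2 difference of the 6 was 0.63, against -0.02 over all genes tested.

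Hmgcs1 stood at 435, 510, 434 and 513 CPM in Chat-neg and at 1005, 800, 811 and 805 CPM in Chat-pos, in the order of the replicate numbers, as for all such series of values here. Every Chat-pos value lay above every Chat-neg value, and Chat-pos replicate 1 stood above the other 3, which lay within a narrow range. The log2 difference was 0.81 ± 0.20 (SE; edgeR adjusted p = 0.0121), a 1.75-fold higher level with an approximate 95% interval of 1.33 to 2.3. Hmgcs1 was also the most abundant of the 28, and its value in Chat-neg replicate 1 rests on 42 reads (435 CPM, exact Poisson 95% interval 314 to 588, which covers counting error only). The call ended when Chat-neg replicate 2 or 3 was dropped (edgeR adjusted p = 0.0601 and 0.0579, log2 differences of 0.87 and 0.79), and held when both Paneth-rich libraries were dropped (log2 difference 0.99, edgeR adjusted p = 0.0243). The gene lies on chromosome 13 at 119690379 to 119708260 of GRCm38, plus strand, and shares 557 exon bases with the antisense gene Gm48342, which had 2 reads in all.

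Pmvk stood at 20.7, 76.6, 84.3 and 123 CPM in Chat-neg and at 167, 128, 142 and 174 CPM in Chat-pos. The groups were apart by a small margin, since Chat-neg replicate 4 came close to Chat-pos replicate 2, and the lowest value rests on 2 reads. The log2 difference was 0.81 ± 0.24 (edgeR adjusted p = 0.0374). Dropping single libraries ended this call in 5 of 8 cases, namely replicates 2 and 3 of Chat-neg and replicates 1, 3 and 4 of Chat-pos (edgeR adjusted p from 0.0636 to 0.164), with log2 differences of 0.78, 0.83, 0.76, 0.87 and 0.74, and so did scaling by total counts (edgeR adjusted p = 0.0767). Pmvk lies on chromosome 3 at 89454541 to 89469013, plus strand.

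The other 4 mevalonate genes did not pass. Mvk, the kinase just before Pmvk, stood at 20.7, 39.5, 31.2 and 37.3 CPM in Chat-neg and 34.2, 39.2, 28.8 and 30.2 CPM in Chat-pos. These are overlapping groups around one level, and the fold of 0.941 had an approximate 95% interval of 0.651 to 1.36. The fitted fold of Hmgcs1, 1.75, lay outside it, but the interval of Hmgcs1, 1.33 to 2.3, overlapped it. Overlap of intervals is not a test of a difference, and the 2 genes were not compared directly. Mvd, which removes the carboxyl group to give isopentenyl diphosphate, had a log2 difference of 0.49 ± 0.30, and Fdps, which joins the units into farnesyl diphosphate, of 0.74 ± 0.28 (edgeR adjusted p = 0.381 and 0.113). Fdps stood at 26.4 to 35.8 CPM in Chat-neg replicates 2 to 4 and at 10.4 CPM, 1 read, in Chat-neg replicate 1. In Chat-pos it stood at 48.9, 51.5, 35.8 and 55.9 CPM, touching the Chat-neg range. Idi1, the isomerase between these steps, was near the limit of detection, with 3, 4, 7 and 6 reads in Chat-neg and with 15, 16, 33 and 38 reads in Chat-pos. Its mean CPM was lower in Chat-pos (11.8 against 12.8) although the fitted log2 difference was 0.52 ± 0.54, since the fit works on counts, of which Chat-neg replicate 1 adds only 3.

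**Figure D1:**
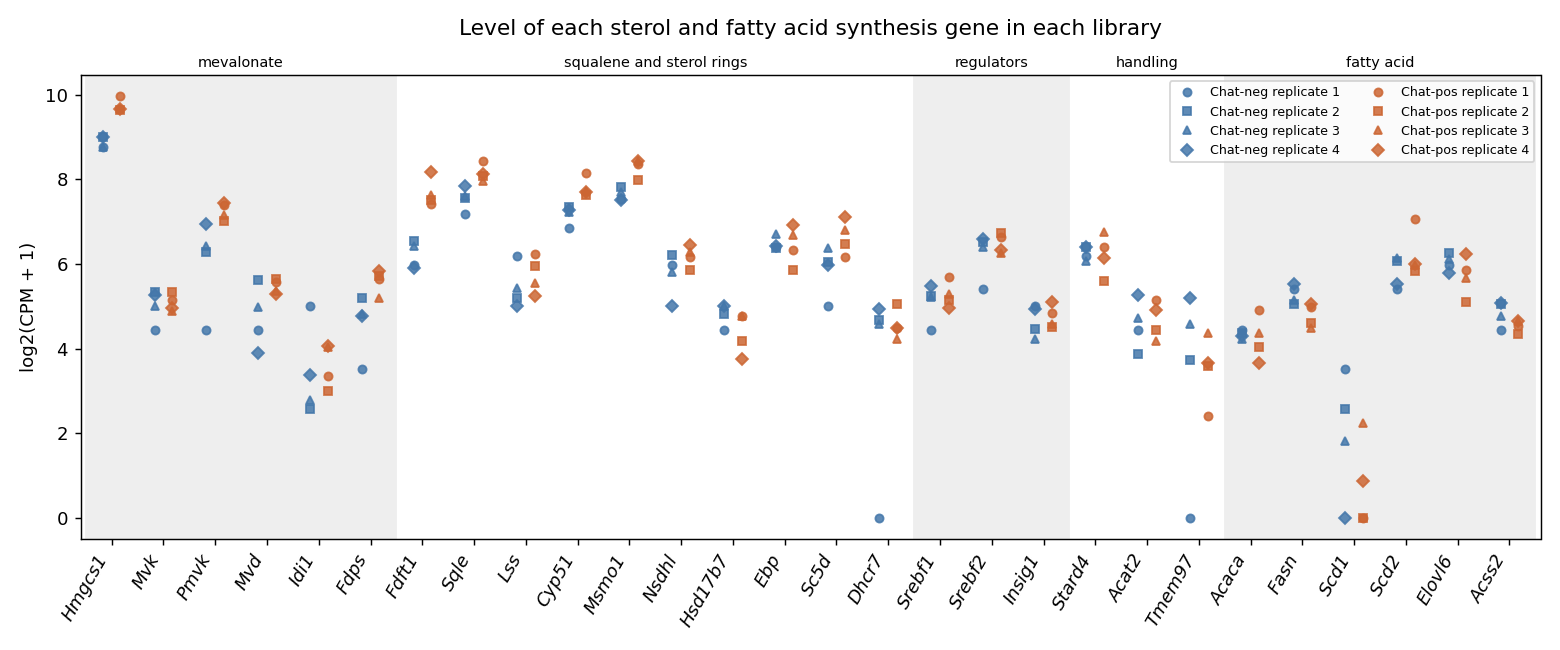
Level of each of the 28 genes in each of the 8 libraries, as log2(CPM + 1), in pathway order, with blue for Chat-neg and orange for Chat-pos and 1 marker shape per replicate number. Hmgcs1, Pmvk, Fdft1, Sqle, Cyp51 and Msmo1 have all orange points above all blue ones, while the regulators and the fatty acid genes overlap.

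The largest difference of the set was at the branch point to sterols. Fdft1, squalene synthase, rose, the sole gene of the 10 from squalene to cholesterol to pass. It stood at 62.2, 92.6, 85.2 and 59.1 CPM in Chat-neg and at 169, 181, 196 and 290 CPM in Chat-pos. Every Chat-pos library lay above every Chat-neg library, and Chat-pos replicate 4 was the highest. The log2 difference was 1.40 ± 0.23 (edgeR adjusted p = 0.000273), a 2.65-fold higher level with an approximate 95% interval of 1.95 to 3.59. The call held in all 17 alternative fits, with log2 differences from 1.21 to 1.65 and adjusted p from 3.86e-06 to 0.00301. Fdft1 lies on the minus strand of chromosome 14 at 63145150 to 63179578 and shares 774 exon bases with Ctsb, the gene of the lysosomal protease cathepsin B on the other strand. The libraries do not mark strand, so reads in the shared part cannot be assigned. Ctsb stood at 82.9, 194, 212 and 211 CPM in Chat-neg and at 168, 187, 185 and 206 CPM in Chat-pos (log2 difference -0.03 ± 0.21, edgeR adjusted p = 0.971), so its own total did not pass the test.

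Sqle, Cyp51 and Msmo1 were higher in every Chat-pos library than in any Chat-neg library without passing the test. Sqle, squalene epoxidase, an oxygen-dependent control point of the pathway, stood at 145, 189, 195 and 230 CPM in Chat-neg and at 346, 271, 247 and 278 CPM in Chat-pos (log2 difference 0.52 ± 0.20, edgeR adjusted p = 0.124). Cyp51, the lanosterol demethylase, stood at 114, 163, 150 and 154 CPM and at 283, 197, 212 and 206 CPM (0.55 ± 0.20, edgeR adjusted p = 0.0985). Msmo1, the oxidase that starts removal of the methyl groups at carbon 4, stood at 186, 225, 207 and 182 CPM and at 327, 252, 348 and 348 CPM (0.62 ± 0.20, edgeR adjusted p = 0.0573). The 3 genes share a modest size of difference, and the gap between the groups was narrow for Sqle, where Chat-neg replicate 4 came close to Chat-pos replicate 3. Msmo1 passed with RLE scaling, DESeq2, limma-voom and without Chat-neg replicate 1 (adjusted p from 0.0153 to 0.0479). Cyp51 shares 166 exon bases with Akap9, which had a log2 difference of 0.32 ± 0.21 (edgeR adjusted p = 0.402). Of the 27 members tested, 6 (22.2%) had groups that did not overlap with Chat-pos higher, all of them sterol enzymes, against 9.23% of all genes tested, and 0 had them with Chat-pos lower, against 4.72%.

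The remaining 6 ring enzymes overlapped between the gates, with no common direction. Sc5d, the desaturase near the end of the pathway, stood at 31.1, 65.4, 82.6 and 62.2 CPM in Chat-neg and at 70.9, 88, 111 and 138 CPM in Chat-pos (0.59 ± 0.24, edgeR adjusted p = 0.149). Lss, which closes the rings to lanosterol, had a log2 difference of 0.42 ± 0.28, and Nsdhl, the dehydrogenase that works after Msmo1, one of 0.39 ± 0.25. Ebp, the sterol isomerase, and Dhcr7, which makes cholesterol from its immediate precursor, lay at -0.03 ± 0.23 and -0.04 ± 0.35, and Hsd17b7, a reductase in the removal of those methyl groups, at -0.53 ± 0.33. Ebp was well measured, with 1023 reads in all, and its fold of 0.976 had an approximate 95% interval of 0.711 to 1.34. Dhcr7 had no read in Chat-neg replicate 1, where up to 31.1 CPM would go undetected, and 17.6 to 32.1 CPM elsewhere. Over the 16 sterol enzymes, 3 rose and none fell, 8 had an unadjusted p under 0.05 (against 20.8% of all genes tested), 12 of 16 (75%) had a difference above 0 and the median was 0.52. Over all genes tested 48.5% had a difference above 0.

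**Figure D2:**
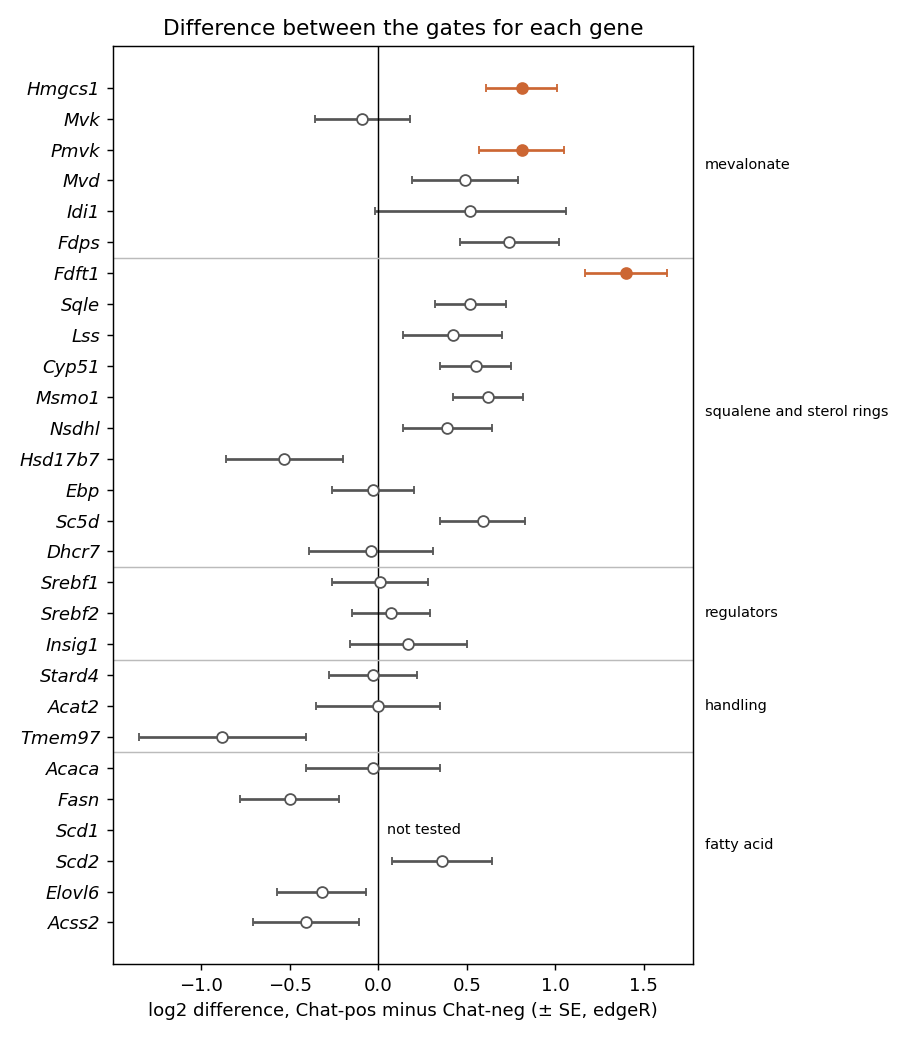
Fitted log2 difference between Chat-pos and Chat-neg for each gene (point) with its standard error (bar), grouped by branch, filled where the adjusted p is under 0.05. The 3 filled points, Hmgcs1, Pmvk and Fdft1, lie in the sterol branch, and the fatty acid genes run from -0.50 (Fasn) to 0.36 (Scd2).

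The regulators of the pathway did not pass. Srebf2, the precursor of the main sterol-branch factor, stood at 41.4, 90.1, 83.5 and 94.8 CPM in Chat-neg and at 98.3, 106, 75.7 and 79.1 CPM in Chat-pos. The groups overlapped, with Chat-neg replicate 1 lowest on 4 reads. Its log2 difference was 0.07 ± 0.22 (edgeR adjusted p = 0.939), and the approximate 95% interval of the fold ran from 0.777 to 1.42. Srebf1 lay at 0.01 ± 0.27 and Insig1, the endoplasmic reticulum protein that retains SREBPs when sterols are plentiful and is itself an SREBP target, at 0.17 ± 0.33. Insig1 was low, at 17.7 to 31.1 CPM in Chat-neg and 21.6 to 33.1 CPM in Chat-pos, and its interval reached a fold of 1.75, the fitted value of Hmgcs1. Of the 3 genes, 0 passed with edgeR, 0 had an unadjusted p under 0.05, and 0 passed with DESeq2 or limma-voom, which for so few genes is near the background of all genes (20.8% at an unadjusted p under 0.05).

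The 3 sterol handling genes did not pass in any of these tests either. Stard4, a carrier of cholesterol between membranes and an SREBP2 target, stood at 65.8 to 84 CPM in Chat-neg and at 83.1, 47.5, 108 and 70 CPM in Chat-pos. Chat-pos spread on both sides of the Chat-neg range (-0.03 ± 0.25, edgeR adjusted p = 0.974). Acat2, the cytosolic thiolase that feeds acetoacetyl-CoA to Hmgcs1, lay at 0.00 ± 0.35, and reads from its close tandem copies in the mouse genome could be split among them. Tmem97, the sigma-2 receptor and a sterol-regulated binding partner of NPC1, stood at 0, 12.3, 22.8 and 35.8 CPM in Chat-neg and at 4.28, 11, 19.5 and 11.6 CPM in Chat-pos. Its log2 difference of -0.88 ± 0.47 (edgeR adjusted p = 0.292) was the lowest of the set, with wide overlap and 0 reads in Chat-neg replicate 1.

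In the fatty acid branch 0 of 5 genes tested passed with edgeR, DESeq2 or limma-voom, and 0 had an unadjusted p under 0.05. With 20.8% of all genes at such a p, and 3.62% and 2.87% called higher and lower with edgeR, counts of 0 among 5 genes are near the background. Fasn, fatty acid synthase, stood at 41.4, 32.1, 34.6 and 45.1 CPM in Chat-neg and at 30.5, 23.3, 21.4 and 32.3 CPM in Chat-pos. The groups overlapped by a single value, Chat-pos replicate 4 just above Chat-neg replicate 2 (-0.50 ± 0.28, edgeR adjusted p = 0.325, fold 0.707 with an approximate 95% interval of 0.481 to 1.04). Acss2, which makes acetyl-CoA from acetate, lay at -0.41 ± 0.30, and Elovl6, which extends palmitate to stearate, at -0.32 ± 0.25. Acaca, acetyl-CoA carboxylase and the committing step, stood at 17.7 to 20.7 CPM in Chat-neg and at 29.3, 15.4, 19.5 and 11.6 CPM in Chat-pos (-0.03 ± 0.38).

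The stearoyl-CoA desaturases, which place the double bond of oleate, were present mainly as Scd2. It stood at 41.4, 66.7, 70 and 45.1 CPM in Chat-neg and at 132, 55.9, 62.2 and 62.5 CPM in Chat-pos. Only Chat-pos replicate 1 stood out, and without it the log2 difference went from 0.36 ± 0.28 to 0.00 (edgeR adjusted p = 0.506 and 0.998). Scd1 had 1, 4, 3 and 0 reads in Chat-neg and had 0, 0, 8 and 2 reads in Chat-pos, and these 2 related genes may share reads. The median of the 5 tested genes was -0.32, against -0.02 over all genes. It was -0.14 without Chat-pos replicate 2, -0.21 without Chat-neg replicate 2 and 0.08 without the 2 Paneth-rich libraries. Elovl6 stood at 33.4 and 50.2 CPM in that pair and at 56.8 and 74.6 CPM in Chat-pos replicates 1 and 4.

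The branches were then set side by side as summed levels. The 16 sterol enzymes summed to 1316, 1693, 1587 and 1618 CPM in Chat-neg and to 2779, 2287, 2456 and 2656 CPM in Chat-pos, without overlap. The 6 fatty acid genes summed to 197, 231, 219 and 196 CPM and to 271, 147, 181 and 206 CPM, with Chat-pos on both sides of Chat-neg. The log2 ratio of the sums was 2.74, 2.87, 2.86 and 3.05 in Chat-neg (mean 2.88 ± 0.13, SD, n = 4) and 3.36, 3.96, 3.76 and 3.69 in Chat-pos (3.69 ± 0.25), a difference of 0.81 between means with no overlap. It is a description of chosen genes and carries no test. The difference was 0.65 without the Paneth-rich libraries and 0.75 without Hmgcs1, which made up 27.4% to 36.2% of the sterol sum in a library. The contrast is one of these members, since the wider lists of both branches, given below, did not show it.

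The tuft marker sum, like the sterol sum, was higher in every Chat-pos library than in any Chat-neg library. As a share of the summed CPM of the 8 tuft markers, the sterol enzymes came to 22.3, 17.6, 14.4 and 17% in Chat-neg and to 18.6, 15.2, 16.8 and 18.6% in Chat-pos, which are overlapping ranges. The fatty acid genes came to 3.34, 2.4, 1.99 and 2.06% and to 1.82, 0.983, 1.24 and 1.44%, lower in each Chat-pos library. On the same scale Hmgcs1 overlapped (3.95 to 7.38% and 5.34 to 6.74%), and so did Pmvk (0.351 to 1.29% and 0.851 to 1.22%). Fdft1 stayed apart by a small margin (0.62 to 1.05% and 1.14 to 2.04%). Its value of 1.05%, in Chat-neg replicate 1, rests on 6 reads (62.2 CPM, exact Poisson 95% interval 22.8 to 135). Counting error alone could close that gap. This scale was added after the data were seen. In such bulk libraries more tuft cells in a gate and more RNA of a gene in each tuft cell cannot be told apart. Of the 8 markers, Chat and Il25 also defined the gates and Sh2d6 gave the largest part of the sum. Chat, Il25, Gfi1b and Sh2d6 were themselves higher in Chat-pos by the edgeR test, while Dclk1 and Avil overlapped between the gates. The shares can therefore depend on the markers chosen, and other choices were not tested. Whether the sterol enzymes followed tuft cell content was not tested either.

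**Figure D3:**
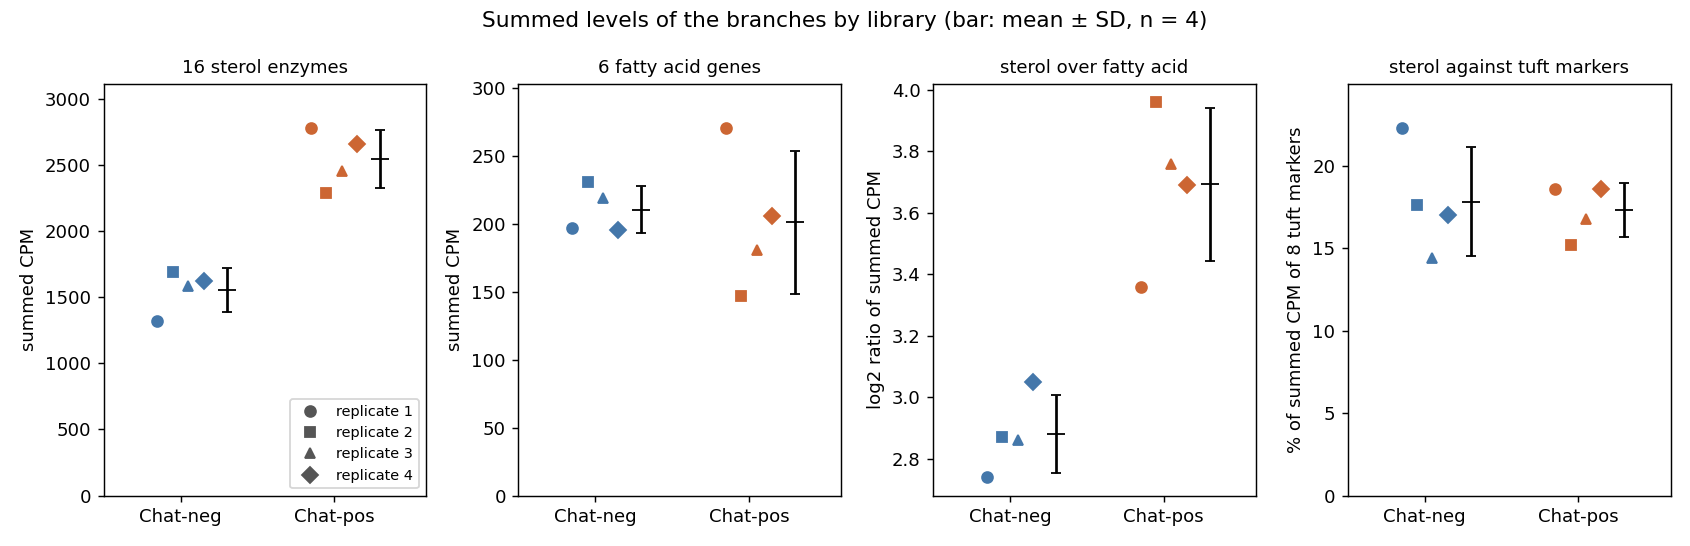
Per library, the summed CPM of the 16 sterol enzymes, the summed CPM of the 6 fatty acid genes, the log2 ratio of these sums, and the sterol sum as a percentage of the summed CPM of 8 tuft markers. Marker shapes are the replicates and black bars the mean ± SD of 4 libraries; the sterol sum and the ratio are apart between the gates, and the last panel overlaps.

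Levels per exon length give an approximate ranking of the steps of the pathway in these cells. Divided by the kilobases of annotated exon, Hmgcs1 led in both gates, at 103 ± 9.65 in Chat-neg and 186 ± 21.7 in Chat-pos (CPM per kb, SD, n = 4). Pmvk was next in Chat-pos at 89 ± 12.6. Msmo1 (51.9 ± 7.39), Sqle (51.5 ± 7.68), Cyp51 (50.8 ± 8.94) and Fdft1 (49.5 ± 13) followed at levels that their spread does not separate. In Chat-neg, Fdft1 was at 17.7 ± 3.94, below Sqle (34.2 ± 6.29), Cyp51 (32.9 ± 4.88) and Msmo1 (32.5 ± 3.21), so that it went from the eighth to the sixth place of the 28. At the low end of the sterol enzymes in Chat-pos were Lss (5.04 ± 1.51), Hsd17b7 (4.03 ± 1.36), Dhcr7 (3.98 ± 1.07) and Idi1 (3.37 ± 1.25). The fatty acid genes stood between 14.3 ± 6.59 (Scd2) and 0.232 ± 0.36 (Scd1), with Fasn at 2.46 ± 0.489 and Acaca at 1.11 ± 0.447. A gene with rarely used long exons reads low on this scale. Lss has the longest annotated exon union of the sterol enzymes, 10787 bases. In CPM it averaged 54.4 in Chat-pos, above Fdps (48), Mvd (43.6) and Mvk (33.1).

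**Figure D4:**
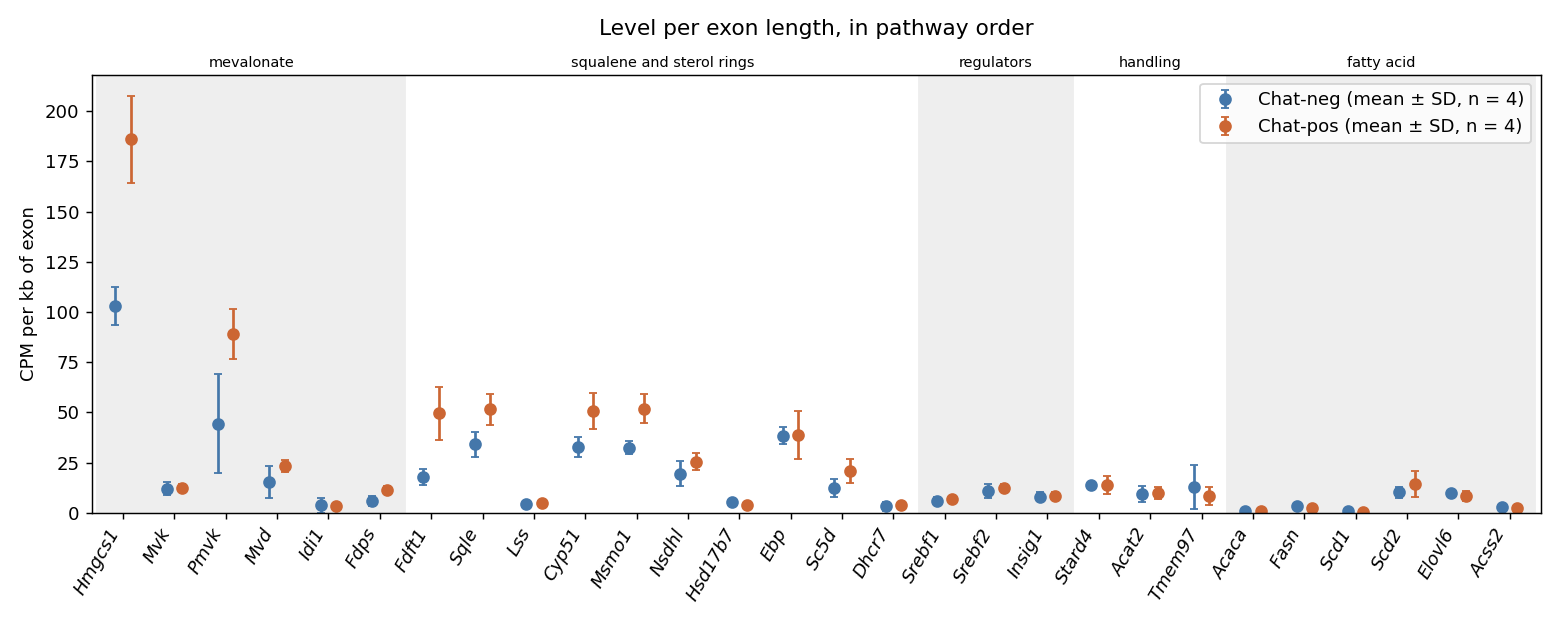
Mean level per kilobase of annotated exon (CPM per kb) of each gene in Chat-neg (blue) and Chat-pos (orange), with the SD of 4 libraries, in pathway order. Hmgcs1 at 186 and Pmvk at 89 in Chat-pos stand above the rest, and the fatty acid genes stay at or below 14.3.

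Lists of neighbouring lipid genes were read from the same fit. Of 101 such genes in 8 lists, 82 were tested, 1 rose and 1 fell, not far from the 3.62% and 2.87% of all genes, and the median log2 difference was 0.01. The 5 other sterol enzymes gave no call, with a median log2 difference of -0.02 and 2 of 5 above 0. Tm7sf2, a sterol reductase of the late pathway, stood at 10.4, 37, 36.3 and 32.6 CPM in Chat-neg and at 47.6, 58.5, 45.5 and 56.3 CPM in Chat-pos. The groups did not overlap, but the gene did not pass (0.61 ± 0.26, edgeR adjusted p = 0.171), and its lowest value rests on 1 read. Acat1, the mitochondrial thiolase, lay at -0.45 ± 0.31 (edgeR adjusted p = 0.446) with overlapping groups.

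In the list of fatty acid oxidation, the opposite process, 1 of 16 tested genes rose and 1 fell. Slc25a20, the carrier that brings acylcarnitines into mitochondria, stood at 62.2, 148, 132 and 129 CPM in Chat-neg and at 261, 228, 205 and 222 CPM in Chat-pos (0.83 ± 0.21, edgeR adjusted p = 0.013) and kept its call in all 17 alternative fits. Hadh, the short-chain hydroxyacyl-CoA dehydrogenase, stood at 114, 173, 136 and 104 CPM and at 60.5, 69.1, 90.6 and 84.5 CPM (-0.85 ± 0.21, edgeR adjusted p = 0.0133). Hadh did not pass when Chat-neg replicate 2, Chat-neg replicate 3, Chat-pos replicate 2 or both Paneth-rich libraries were dropped, or with no filter (edgeR adjusted p from 0.0532 to 0.24). Its log2 difference lay between -0.95 and -0.66 with single libraries dropped. These 2 genes thus lay on opposite sides with no overlap between the gates.

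The other lists gave no call. In the list of other fatty acid synthesis and desaturation the median log2 difference was 0.22, with 10 of 14 tested genes (71.4%) above 0. Its summed levels were 798, 987, 983 and 1114 CPM in Chat-neg and 1142, 1132, 1311 and 1231 CPM in Chat-pos, without overlap. In the 14 tested genes of other fatty acid synthesis and desaturation, Aacs, which makes acetoacetyl-CoA from ketone bodies for lipid synthesis, lay at 0.95 ± 0.32 (edgeR adjusted p = 0.0689) and Mid1ip1, a protein that promotes assembly of acetyl-CoA carboxylase, at 0.69 ± 0.23 (edgeR adjusted p = 0.0764). Of the 10 SREBP processing genes tested, Trib1, a pseudokinase, lay at -0.96 ± 0.32 and Mbtps1, the site-1 protease that cuts SREBPs, at -0.70 ± 0.30 (edgeR adjusted p = 0.0782 and 0.164). Sterol uptake, transport and storage had 0 of 10 called, with Osbpl2, of the oxysterol-binding protein family, at 0.67 ± 0.28 and Gramd1b, a carrier of cholesterol from the plasma membrane, at 0.67 ± 0.32. The efflux and LXR list had 0 of 6 called, with Abcg8, 1 chain of the apical sterol exporter, at -0.68 ± 0.31 and Lpcat3 at 0.23 ± 0.24. The prenyl branch had 0 of 9 called, with Fnta and Fntb, the chains of protein farnesyltransferase, at 0.41 ± 0.26 and 1.00 ± 0.68. Fatty acid activation and glycerolipid synthesis had 0 of 12 called, with the acyltransferases Gpat3 and Agpat2 at -0.64 ± 0.50 and 0.27 ± 0.23. In lists with fewer than 2 calls, the genes named are the 2 with the smallest p.

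**Figure D5:**
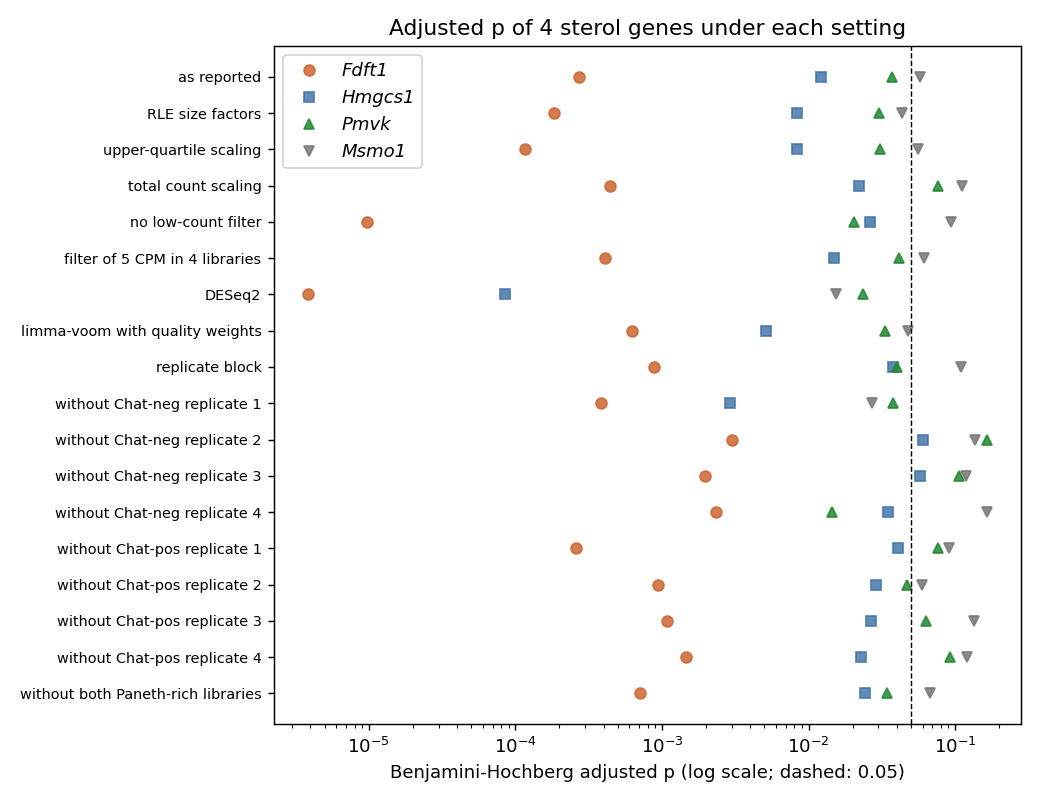
Benjamini-Hochberg adjusted p (log axis) of Fdft1, Hmgcs1, Pmvk and Msmo1 in the fit as reported and in 17 alternatives, with the threshold of 0.05 dashed. Fdft1 stays left of the line throughout, Hmgcs1 crosses it without Chat-neg replicate 2 or 3, and Pmvk and Msmo1, the latter picked after its values were seen, lie on both sides.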

How the data were processed

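Tuft cells were sorted into SMARTer v4 lysis reagents and made into Nextera XT libraries, read singly over 74 cycles, per the labels' protocols. The kits named mark neither strand nor molecules. The authors deposited 1 table of whole-number counts, by gene symbol and not normalized. The submitters' processing notes name GRCm38, and no source used here gives an aligner, counter or annotation. Of 53806 rows, 36 had no gene name. They held 67.8% to 88.4% of counts in Chat-neg and 58.6% to 64.6% in Chat-pos and were left out. Rows sharing a symbol (229 rows, 114 symbols) were summed. Within each group, all pairs of libraries differed by more than counting noise.

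The test was run in edgeR 4.0.16 under R 4.3.3 (TMM, filterByExpr, robust quasi-likelihood fit, group as the only term, Benjamini-Hochberg adjustment, threshold 0.05). A standard error is the size of the log2 difference over the square root of F, and the approximate 95% interval of a fold was taken from it. Such an interval can be too narrow where the p of the test is larger than F implies, as for Srebf2. Exon lengths and overlaps came from GENCODE M21 on GRCm38, as the union of all annotated exons, and promoter windows from RefSeq. The test was checked on simulated counts, where it missed most genes changed 2-fold or less, so a gene that did not pass is not shown to be unchanged. The members, lists and tests were chosen with earlier results of these data known. The text names all members and, of each other list, every called gene and, where fewer than 2 were called, the 2 with the smallest p; 1 gene is not reported here. Alternatives were other scalings (RLE, upper quartile, total count), filters (none, 5 CPM in 4 libraries), DESeq2 1.42.0, limma 3.58.1 (voom with quality weights), the replicate number as a block, and libraries left out.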

Additional observations from a re-analysis of the deposited data

Results flagged for a closer look

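In 94 groups of 4 libraries examined, 9 had a highest or lowest library far from the other 3, by a criterion that chance meets in about 1 group in 20. Hmgcs1 was at 1005 CPM in Chat-pos replicate 1, against 800 to 811 CPM in the other Chat-pos libraries, and Scd2 there was at 132 CPM, against 55.9 to 62.5 CPM. Mid1ip1 was also high in that library, at 97.1 CPM, against 68.7 to 73.3 CPM. In Chat-neg replicate 1, Idi1 was at 31.1 CPM on 3 reads, against 4.94 to 9.33 CPM, and Tm7sf2 was at 10.4 CPM, against 32.6 to 37 CPM. Ebp was at 104 CPM in Chat-neg replicate 3, against 82.7 to 85.5 CPM, and Abcg8 at 51.9 CPM in Chat-neg replicate 2, against 31.1 to 31.2 CPM. Mbtps1 was low in Chat-pos replicate 3, at 16.7 CPM, against 26.8 to 28.6 CPM, and Aacs in Chat-pos replicate 4, at 42.7 CPM, against 57.2 to 59.9 CPM.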

How the results depend on the processing

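The sterol enzymes' median log2 difference stayed between 0.40 and 0.74 under all 17 alternatives, and the difference in the sterol to fatty acid ratio between 0.65 and 0.92 under the 10 alternatives run for it (libraries left out and a mean of logs). The fatty acid median was -0.11 with no filter and 0.08 without the Paneth-rich libraries. Leaving out 1 library gave 1 to 4 members higher (1, Fdft1, without Chat-neg replicate 2 or 3), 138 to 360 genes higher and 110 to 309 lower over all genes, and 1 to 2 higher and 0 to 2 lower in the other lipid lists. Over all genes, higher calls moved by over 1.5 times without Chat-neg replicate 2 (138) and lower calls when replicate 2, 3 or 4 of Chat-neg or replicate 3 of Chat-pos was dropped (110, 163, 124 and 141). Genes lower over all, 256 as reported, were 143 with no filter, 402 with limma-voom and 86 without the Paneth-rich libraries. In the other lipid lists, 2 genes were higher with no filter, and 0 were lower with no filter and without the Paneth-rich libraries. Calls over all genes split into 323 higher and 256 lower as reported, into 225 and 380 with total count scaling, which moved the median of all genes to -0.14, and into 344 and 143 with no filter, which moved it to -0.34. The cause of these shifts was not tested. Same-numbered libraries did not deviate together (correlations from -0.0233 to 0.0535), and the labels do not say whether they share an animal, so the fit as reported treats them as unpaired. With the replicate block 290 genes were higher and 230 lower, with 3 members higher. Of 755 values of single genes under alternatives, 13 lost a call, 7 gained one, 41 changed sign without passing in either fit and 0 called values changed sign. Depth limits the low genes: Scd1, Idi1 and Tmem97 rest on 18, 122 and 162 reads in all.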
